A study of Mus musculus with 6 samples.

Results

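Metallothionein and zinc handling genes were described in RNA of cells sorted as pericytes from mouse leg muscle. The 6 genes, out of 53715 in the deposited gene table, were chosen by symbol: the metallothioneins Mt1, Mt2 and Mt3, the zinc-sensing transcription factor Mtf1, the zinc importer Slc39a14 (ZIP14) and the zinc exporter Slc30a1 (ZnT1). Each symbol matched 1 row of the table. In the stimulated group, 3 wild-type male C57BL/6J mice aged 14 weeks received electrical stimulation of the crural muscles for 40 contractions, 20 of them eccentric and 20 concentric, over about 10 minutes, and tissue was taken 3 hours later. The sham group was 3 unstimulated mice of the same genotype, strain, sex and age. In all 6 mice the CD146+CD45-CD31- gate was applied to cells of the gastrocnemius-soleus complex, which leaves out cells bearing the leukocyte antigen CD45 or the endothelial antigen CD31 at the surface. The comparison asks what an acute bout does to the RNA of these cells 3 hours on.

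Metallothioneins are small cysteine-rich proteins that bind zinc, copper and cadmium and buffer free zinc in the cell. Free zinc binds the zinc fingers of Mtf1, which then binds metal response elements in the promoters of Mt1, Mt2 and Slc30a1, so that these genes rise together when cytosolic zinc rises. Mt1 and Mt2 are also induced by glucocorticoids and, through STAT3, by interleukin-6, and interleukin-6 is known to induce Slc39a14 in hepatocytes. In skeletal muscle, metallothionein genes are known to be induced by exercise, atrophy and inflammation.

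The 4 mouse metallothionein genes lie side by side on the plus strand of chromosome 8 (GRCm38). Mt1 (ENSMUSG00000031765.8) spans bases 94179082 to 94180327, and Mt2 (ENSMUSG00000031762.7) ends 5513 bases before it, spanning 94172664 to 94173568. Mt3 (ENSMUSG00000031760.9) lies a further 18517 bases upstream, at 94152607 to 94154146, and Mt4, the form of stratified epithelia, begins the cluster at 94137197. Mtf1 (ENSMUSG00000028890.13) lies on chromosome 4 from 124802104 to 124849800, and Slc30a1 (ENSMUSG00000037434.7) on chromosome 1 from 191906767 to 191913247, both on the plus strand. Slc39a14 (ENSMUSG00000022094.15) lies on the minus strand of chromosome 14 from 70303469 to 70351425.

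The promoter windows of the genes that Mtf1 is known to regulate are shown because they carry the metal response element core through which zinc acts. The windows come from RefSeq (GRCm38.p6) and run from 250 bases before to 50 after the RefSeq start site, 300 bases in all, 5′ to 3′ on the plus strand. They are Mt1 at chr8:94178839-94179138, Mt2 at chr8:94172368-94172667 and Slc30a1 at chr1:191906531-191906830. Capitals mark matches to the core, searched as TGCACNC or TGCGCNC on both strands.
Mt1: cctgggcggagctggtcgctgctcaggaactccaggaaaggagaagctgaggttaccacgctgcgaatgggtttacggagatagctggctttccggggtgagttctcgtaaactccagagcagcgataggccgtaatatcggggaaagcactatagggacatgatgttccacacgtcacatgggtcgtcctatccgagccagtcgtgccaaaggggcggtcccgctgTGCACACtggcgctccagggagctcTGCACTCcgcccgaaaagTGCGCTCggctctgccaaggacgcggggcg
Mt2: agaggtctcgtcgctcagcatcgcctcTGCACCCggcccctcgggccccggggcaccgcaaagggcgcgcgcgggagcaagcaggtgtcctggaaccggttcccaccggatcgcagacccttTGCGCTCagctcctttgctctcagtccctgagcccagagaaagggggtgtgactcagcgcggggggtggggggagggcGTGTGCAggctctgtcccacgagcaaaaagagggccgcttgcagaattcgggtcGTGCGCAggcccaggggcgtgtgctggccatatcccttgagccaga
Slc30a1: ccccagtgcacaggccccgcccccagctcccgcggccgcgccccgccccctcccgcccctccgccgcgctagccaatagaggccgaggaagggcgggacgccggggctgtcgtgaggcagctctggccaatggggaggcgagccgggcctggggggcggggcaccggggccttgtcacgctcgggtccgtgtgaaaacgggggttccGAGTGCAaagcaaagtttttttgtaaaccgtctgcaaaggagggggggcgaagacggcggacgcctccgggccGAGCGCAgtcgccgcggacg
The Mt2 window held 4 matches, the Mt1 window 3 and the Slc30a1 window 2, and no match overlapped another. Among all 32851 RefSeq windows of this length, 25.7% held at least 1 match, 7.11% at least 2, 1.97% at least 3 and 0.517% at least 4. Of the 6 genes, 5 matched the promoter table. The Mt3 window held 1 match and the Mtf1 window 0. The Mt1 and Mt2 windows end 172 and 180 bases before the first annotated start codon, so the sequence next to the coding region was not searched. Other annotated transcripts begin past the window ends, at 94179211 and 94179241 for Mt1 and at 94172860 for Mt2. The bases just before those starts were not searched, so positions are relative to the RefSeq start site alone. The STAT core, searched as TTCNNNGAA, which reads the same on both strands, had 0 matches in these 5 windows and was present in 8.3% of all windows.

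**Figure D1:**
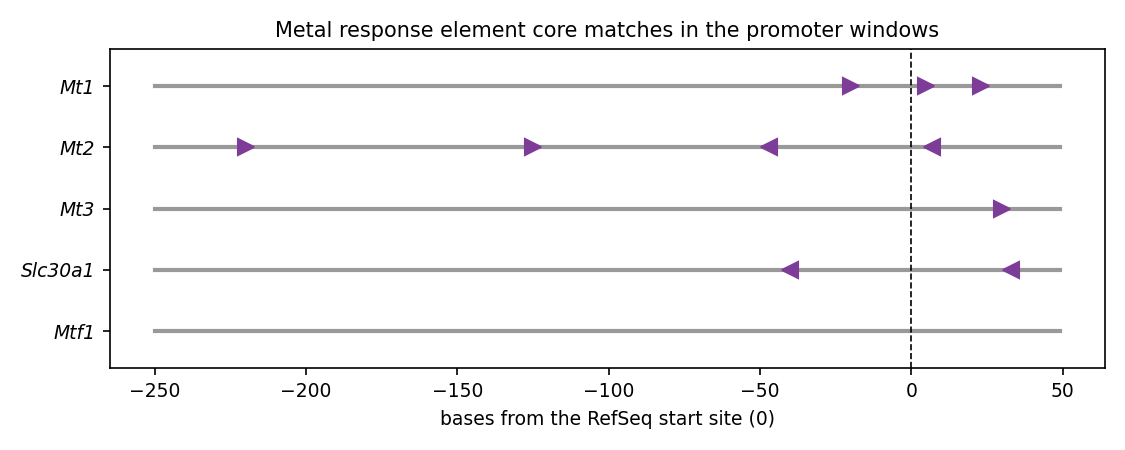
Positions of metal response element core matches in the 5 RefSeq promoter windows, in bases from the RefSeq start site at 0. Triangles point right for matches on the strand of the gene and left for the other strand, and the grey lines are the windows searched. Mt2 has 4 matches spread over its window, Mt1 has 3 within 26 bases of the RefSeq start site, and Mtf1 has 0. Other annotated starts of Mt1 and Mt2 lie past the window ends.

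The deposited gene counts summed to 18204991, 21004095 and 23709220 in stimulated replicates 1 to 3 and to 20292341, 17520338 and 21825118 in the sham libraries. The sort genes gave a mixed picture of the material: Mcam, which encodes CD146, averaged 36.4 ± 15.6 CPM (counts relative to library size, scaled by TMM; SD, n = 3) in stimulated and 69.3 ± 33.3 CPM in sham libraries (SD, n = 3). Ptprc, which encodes CD45, averaged 1020 ± 24.5 CPM in stimulated and 624 ± 373 CPM in sham libraries (SD, n = 3 each). Pecam1, which encodes CD31, averaged 463 ± 101 CPM in stimulated and 850 ± 386 CPM in sham libraries (SD, n = 3 each). RNA of both antigens that the gate excludes was thus present, and in such bulk samples a change in the cells present and a change in RNA per cell cannot be told apart. Sham replicate 2 stood apart, with 377 summed CPM over 4 pan-leukocyte markers, where the other 5 libraries had 1350 to 1840, and 8150 summed CPM over 11 endothelial markers, where they had 1940 to 4760.

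Mt1 and Mt2, the ubiquitous metallothioneins, had higher TMM-scaled levels in every stimulated library than in any sham library, and Slc39a14, the importer, did as well. Their stimulated levels stood at 3.06, 6.2 and 1.56 times the sham levels, but 0 of the 5 genes tested passed the threshold of 0.05 after adjustment over all 26559 genes tested. Mtf1, the zinc sensor, and Slc30a1, the exporter it induces, differed by less than the spread between mice. Mt3, the metallothionein known from brain, was at the edge of detection.

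Mt1 stood at 49.3, 50.4 and 72.5 CPM in stimulated replicates 1, 2 and 3, against 12, 28.8 and 15.6 CPM in sham replicates 1, 2 and 3. The groups did not overlap, the lowest stimulated library standing well above sham replicate 2, the highest sham library. The means were 57.4 ± 13.1 CPM in stimulated and 18.8 ± 8.82 CPM in sham libraries (SD, n = 3 each), a log2 fold change of 1.61 (SE 0.36, 95% interval 0.81 to 2.42). The quasi-likelihood test of edgeR gave Mt1 an adjusted p = 0.424, its p being at rank 83 from the smallest among all genes tested.

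Mt2 stood at 17.7, 14.1 and 50.4 CPM in stimulated replicates 1, 2 and 3, against 2.4, 7.8 and 3.1 CPM in the sham replicates in the same order. Again the groups did not overlap, and in each group the library highest in Mt1 was also highest in Mt2: replicate 3 among stimulated and replicate 2 among sham. Means were 27.4 ± 20 CPM in stimulated and 4.43 ± 2.94 CPM in sham libraries (SD, n = 3 each), a log2 fold change of 2.63 (SE 0.6, 95% interval 1.27 to 4) with an adjusted p = 0.424 in edgeR's test, at rank 109 by p. Single libraries weighed on the size: the log2 fold change was 1.85 without stimulated replicate 3 and 3.33 without sham replicate 2. For Mt1 it was 1.41 without stimulated replicate 3 and 2.06 without sham replicate 2. Each library left out in turn gave a positive value for both genes. The separation of the groups also depended on the scaling. In the deposited TPM, which is not TMM-scaled, sham replicate 2 stood at 5.38 for Mt1 and 3.62 for Mt2, above stimulated replicate 2 at 5.06 and 3.52, while sham replicates 1 and 3 lay below every stimulated library.

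Slc39a14, which carries zinc and also iron and manganese into cells, stood at 32, 45.9 and 42.7 CPM in stimulated replicates 1, 2 and 3, against 21, 31.1 and 25.3 CPM in sham replicates 1, 2 and 3. The groups touched without crossing, since stimulated replicate 1 lay just above sham replicate 2. The means were 40.2 ± 7.31 CPM in stimulated and 25.8 ± 5.11 CPM in sham libraries (SD, n = 3 each), a log2 fold change of 0.64 (SE 0.26, 95% interval 0.06 to 1.23; edgeR adjusted p = 0.668). In the deposited TPM the groups overlapped, at 0.548, 0.651 and 0.688 in stimulated replicates 1, 2 and 3, against 0.483, 0.822 and 0.337 in sham replicates 1, 2 and 3.

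At an unadjusted p under 0.05, 3 of the 5 tested genes were higher in stimulated libraries and 0 were lower, where 2.64% of all tested genes were higher and 4.41% lower at that level. The same 3 genes were those whose groups did not overlap, a pattern that 6.12% of all tested genes showed in the higher direction and 5.89% in the lower. At an adjusted p under 0.05, edgeR called 0% of all genes in either direction, as did limma voom. DESeq2 called 0.373% of the genes to which it gave an adjusted p as higher, among them Mt1 (adjusted p = 0.00448) and Mt2 (adjusted p = 0.000908), and 0.771% as lower. It did not call Slc39a14 (adjusted p = 0.4). From reads summed over transcripts, edgeR called 0.00377% of genes higher and 0% lower, none of them among the 5. The log2 fold change was above 0 in 4 of the 5, where it was above 0 in 48% of all tested genes.

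**Figure D2:**
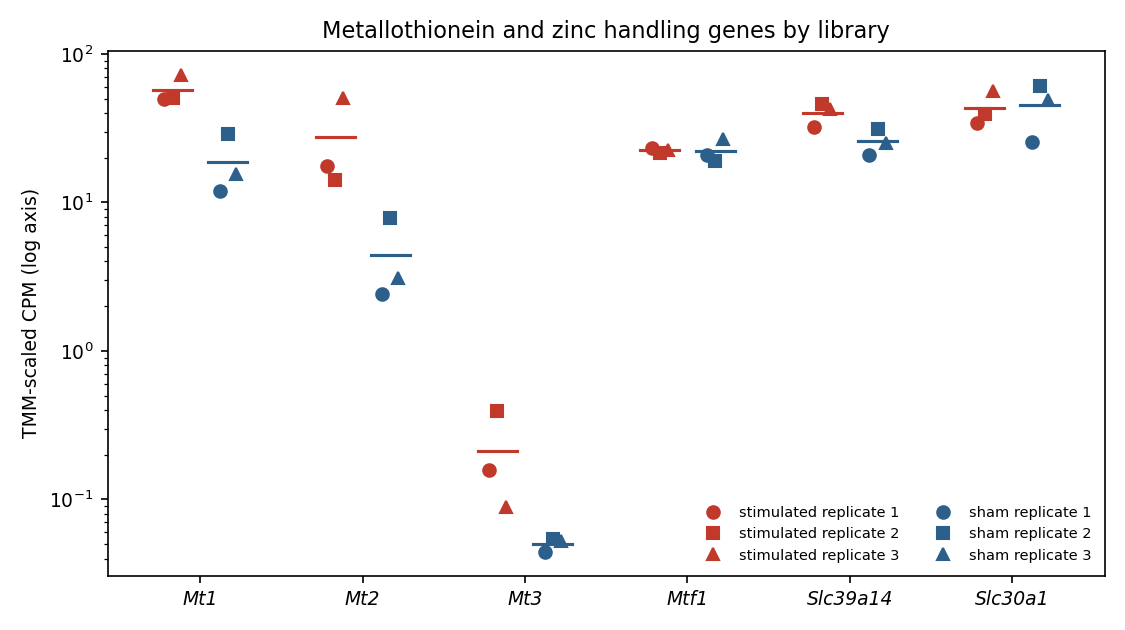
TMM-scaled CPM of the 6 genes in each library on a log axis, stimulated in red and sham in blue, with 1 marker shape per replicate number and bars at the group means. Mt1 lies at 49.3 to 72.5 CPM in stimulated and 12 to 28.8 CPM in sham libraries, while Mtf1 and Slc30a1 overlap between the groups.

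Mtf1, whose protein senses zinc through its zinc fingers, stood at 23.3, 21.4 and 22.4 CPM in stimulated libraries, against 20.7, 18.9 and 26.9 CPM in sham libraries. The stimulated values lay within the sham range. The log2 fold change was 0.01 (SE 0.24), with a 95% interval of -0.53 to 0.56 that allows changes of either sign (edgeR adjusted p = 0.998). From reads summed over transcripts it was 0.2 (SE 0.2). Full-length Mtf1 transcripts were higher in every stimulated library, at 18.9, 17.7 and 16.4 CPM in stimulated replicates 1, 2 and 3. In sham replicates 1, 2 and 3 they stood at 14, 15.3 and 15.7 CPM, and this difference was not tested.

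Slc30a1, which moves zinc out of the cell, stood at 34, 39.5 and 55.8 CPM in stimulated libraries, against 25.5, 61 and 49.1 CPM in sham libraries. Sham replicate 1 was the lowest of the 6 libraries and sham replicate 2 the highest, so the sham range enclosed the stimulated one. The log2 fold change was -0.07 (SE 0.35, 95% interval -0.85 to 0.72; edgeR adjusted p = 0.994). Slc30a1 carries metal response element matches as Mt1 and Mt2 do, and its interval lies below the estimates for both of them. The difference between these genes was not tested.

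Mt3, which binds zinc and copper in neurons and astrocytes, had 4, 11 and 1 estimated reads in stimulated replicates 1, 2 and 3, and 1 read in each sham library. Most of its reads came from stimulated replicate 2. The gene did not pass the filter on low counts and was not tested. Markers of glia and Schwann cells summed to 59.7 to 81 CPM over 6 genes in stimulated and 30.9 to 54 CPM in sham libraries. Mt4 had reads in sham replicate 3 alone, at 0.105 CPM.

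**Figure D3:**
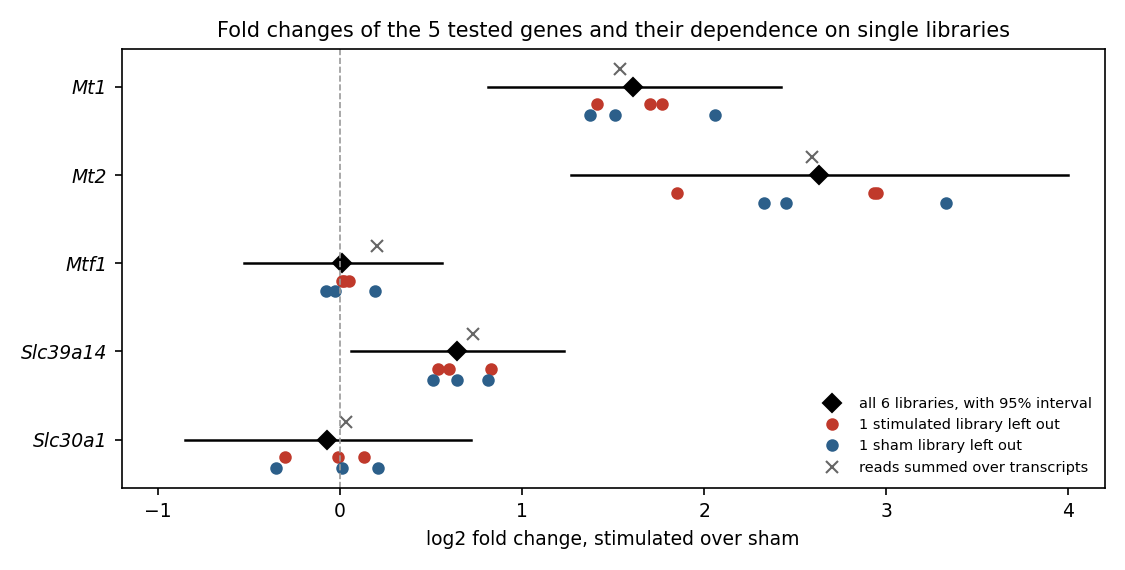
Log2 fold changes, stimulated over sham, of the 5 tested genes: diamonds with 95% intervals from all 6 libraries, circles with 1 library left out, and crosses from reads summed over transcripts. Mt1, Mt2 and Slc39a14 stay above 0 in all of these, and Mtf1 and Slc30a1 fall on both sides of 0.

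Per kilobase of transcript, with reads placed as estimated, the metallothioneins Mt1 and Mt2 were the most abundant of the 6 genes. In RPKM (scaled reads per kilobase of effective transcript length), Mt2 averaged 182 ± 126 and Mt1 155 ± 30.4 in stimulated libraries (SD, n = 3), and Mt1 51.6 ± 24.2 and Mt2 30.2 ± 20 in sham libraries (SD, n = 3). In the mean over all libraries, Mt1 lay above 93.1% and Mt2 above 93.3% of tested genes in RPKM. The other expressed genes followed in stimulated libraries as Slc39a14 at 15.5 ± 3.45, Mtf1 at 14.9 ± 0.5 and Slc30a1 at 10.6 ± 2.51 RPKM (SD, n = 3), and in sham libraries as Mtf1 at 14.9 ± 3.33, Slc30a1 at 11.3 ± 4.62 and Slc39a14 at 10 ± 2.09 RPKM (SD, n = 3). Neighbours in each order differed by less than the SD of the more variable gene, with 2 exceptions, both in stimulated libraries: Mt1 over Slc39a14 and Mtf1 over Slc30a1. The place of Mtf1 rests on a 781-base transcript annotated as keeping an intron, which held 71.5 to 82% of Mtf1 TPM in stimulated libraries. Full-length Mtf1 transcripts held 12.6 to 13.9% there. In sham replicate 3, a 636-base coding transcript held 54.84% of Mtf1 TPM and the 781-base transcript 28%. For Slc39a14, transcripts annotated as keeping an intron held 60.2, 50.3 and 38.8% of TPM in stimulated replicates 1, 2 and 3. Its 4926-base coding transcript held 34.1, 22.1 and 36.2% there, so the order does not hold for coding RNA alone.

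The ratio of Mt1 to Mt2 in RPKM was 1.12, 1.43 and 0.579 in stimulated replicates 1, 2 and 3, and 2.03, 1.48 and 2.03 in sham replicates 1, 2 and 3. The ratio was lower in every stimulated library than in any sham library, although stimulated replicate 2 and sham replicate 2 nearly met. With 3 libraries a group, an exact two-sided permutation test of such a ratio cannot give a p below 0.1. The level of Mt2 per kilobase depends on which of its transcripts the reads are placed on. The estimates put 76.5 to 82.4% of Mt2 reads in stimulated and 69.2 to 93.1% in sham libraries on a 388-base transcript. Its effective length was 139 bases, and it begins 196 bases downstream of the 511-base transcript. That start, at base 94172860, lies past the first annotated Mt2 start codon at 94172848. Its first exon runs to 94172952, where that of the 511-base transcript ends at 94172875, so it holds sequence that is intronic in the longer form. With all Mt2 reads placed on the 511-base transcript, Mt2 would stand at 62.9 to 169 RPKM in stimulated and 9.64 to 29.5 RPKM in sham libraries. In sham replicates 1 and 3, Mt2 at 9.64 and 11.8 RPKM would then lie below Mtf1 at 13.4 and 18.7 RPKM.

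Mt1 reads were placed on spliced and on intron-keeping transcripts in different shares in the 2 groups. Mt1 has 3 exons in its 549-base transcript, and 2 further annotated transcripts keep 1 or both introns. The intron-keeping transcripts took 10.3, 9.07 and 9.77% of Mt1 reads in stimulated replicates 1, 2 and 3, against 17.4, 31.7 and 22.2% in sham replicates 1, 2 and 3. In level, the spliced transcript averaged 51.3 ± 12.9 CPM in stimulated and 14.4 ± 5.27 CPM in sham libraries (SD, n = 3 each), with no overlap. The intron-keeping transcripts averaged 5.53 ± 1.47 CPM in stimulated and 5.07 ± 3.83 CPM in sham libraries (SD, n = 3 each), and there the groups overlapped. That overlap rested on sham replicate 2, at 9.39 CPM: the intron-keeping transcripts stood at 5.08, 4.33 and 7.17 CPM in stimulated replicates 1, 2 and 3, against 2.09 and 3.74 CPM in sham replicates 1 and 3. Without sham replicate 2, both classes were higher in every stimulated library. These reads were assigned to transcripts by estimation and were not tested.

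For Slc39a14 both classes were higher in every stimulated library. Its 4926-base coding transcript stood at 25.5 ± 5.56 CPM in stimulated and 13.4 ± 3.27 CPM in sham libraries (SD, n = 3 each), ranging from 21.2 to 31.8 CPM in stimulated and from 10.4 to 16.9 CPM in sham libraries. Transcripts annotated as keeping an intron stood at 8.83, 9.06 and 11.3 CPM in stimulated replicates 1, 2 and 3, against 7.82, 8.8 and 6.83 CPM in sham replicates 1, 2 and 3. They took 26.3, 28.3 and 25.4% of its reads in stimulated replicates 1, 2 and 3, against 37.2, 32.3 and 37.8% in sham replicates 1, 2 and 3. As a share of the TPM of the gene the groups overlapped, at 60.2, 50.3 and 38.8% in stimulated and 64.8, 51 and 71.6% in sham libraries. Among 6024 genes with such transcripts and at least 100 reads in every library, this share was lower in all stimulated than in all sham libraries in 2.52% and higher in 9.45%. Over all reads, transcripts of this annotated class took 8.72 to 8.96% in stimulated and 7.92 to 9.17% in sham libraries. For Mtf1 the share was 18.7 to 24.2% in stimulated and 9.44 to 22.2% in sham libraries, and the groups overlapped.

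ZIP14 is made in alternative forms that differ in 1 exon of 170 bases. The exon at bases 70313601 to 70313770 of chromosome 14 belongs to the 4926-base transcript, which took 66.3 to 71.7% of Slc39a14 reads in stimulated and 57.9 to 62.1% in sham libraries. The other, at 70315664 to 70315833, belongs to transcripts of 2075 and 2098 bases, which together took 0 to 2.81% in stimulated and 0 to 2.99% in sham libraries. A transcript that keeps the intron around that second exon also holds its sequence, so the estimate for the second form is a low one if reads were placed there.

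**Figure D4:**
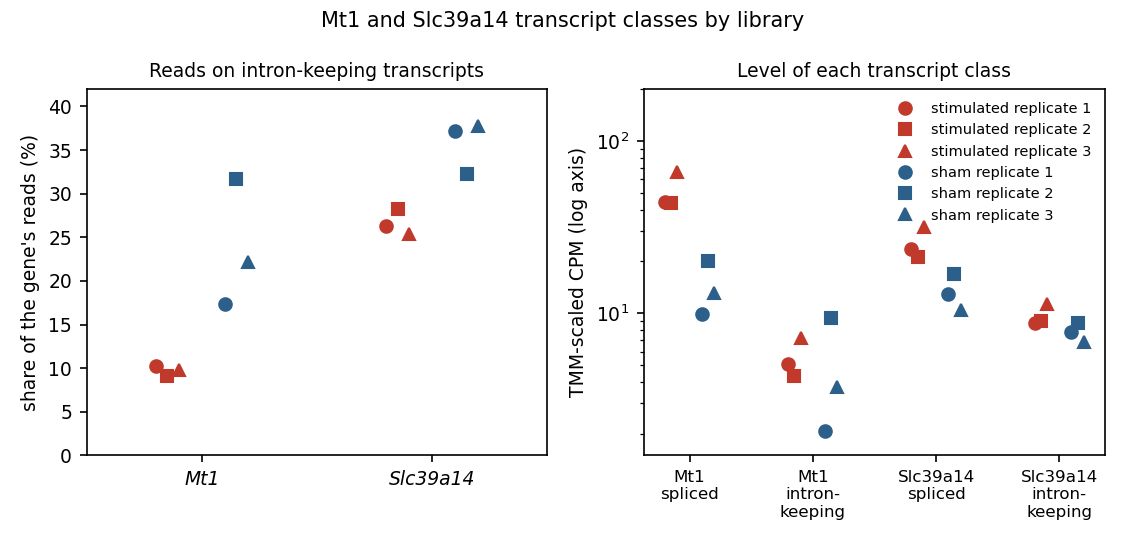
Left, share of the reads of Mt1 and Slc39a14 placed on intron-keeping transcripts in each library; right, level of the main spliced transcript and of the intron-keeping transcripts in TMM-scaled CPM on a log axis. Stimulated libraries are red and sham blue. The Mt1 share is 9.07 to 10.3% in stimulated and 17.4 to 31.7% in sham libraries, and in level the intron-keeping Mt1 transcripts overlap between the groups through sham replicate 2, at 9.39 CPM.

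The other zinc transporters were mostly level between the groups. Of 9 other Slc30 genes, all tested, 0 passed the threshold in either direction, 6 leaned higher and 3 lower, and the median log2 fold change was 0.04 where that of all tested genes was -0.02. Of 13 other Slc39 genes 11 were tested, again with 0 past the threshold, 5 higher and 6 lower, and a median of -0.02. At an unadjusted p under 0.05 both lists had 0 genes in either direction, and DESeq2 called 0.

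Among the exporters, Slc30a9, named for the family but known for mitochondrial zinc, had the highest level at 51.8 ± 8.35 RPKM in stimulated and 50 ± 6.21 RPKM in sham libraries (SD, n = 3 each). The Golgi and secretory pathway transporters Slc30a5 and Slc30a7 followed at 28.1 ± 4.19 and 25.9 ± 4.39 RPKM in stimulated and 26.8 ± 5.92 and 25.3 ± 4.68 RPKM in sham libraries (SD, n = 3 each). Slc30a1, the plasma membrane exporter, thus ranked below these transporters of internal membranes. By the smallest p, the exporters to name were Slc30a2 at a log2 fold change of 0.49 (SE 0.58), Slc30a4 at -0.14 (SE 0.27) and Slc30a10, which carries manganese, at -0.23 (SE 0.52). Slc30a2 was the 1 exporter whose groups did not overlap, at 0.591 to 0.751 CPM in stimulated and 0.379 to 0.533 CPM in sham libraries. These are low levels, and DESeq2 gave the gene no adjusted p. Of all tested genes, 6.12% showed such a separation in the higher direction and 5.89% in the lower.

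Among the importers, Slc39a7, which releases zinc from the endoplasmic reticulum, was highest at 34.3 ± 6.93 RPKM in stimulated and 36.4 ± 10.2 RPKM in sham libraries (SD, n = 3 each). Slc39a10, which Mtf1 is known to repress when zinc is high, stood at 29.1, 27.3 and 28.9 CPM in stimulated replicates 1, 2 and 3, against 32.4, 53.7 and 34.3 CPM in sham replicates 1, 2 and 3, a log2 fold change of -0.50 (SE 0.26; edgeR adjusted p = 0.775). Its stimulated libraries lay below all sham libraries, and sham replicate 2 was far above the rest. Slc39a13, a transporter of the secretory pathway needed for connective tissue, was the other importer with groups that did not overlap, at 10.8 to 14.7 CPM in stimulated and 15.1 to 17.5 CPM in sham libraries (log2 fold change -0.41, SE 0.25). Slc39a4, the intestinal importer, had 0.56 (SE 0.39). Slc39a8, the closest relative of Slc39a14, stood at 8.88 ± 0.381 CPM in stimulated and 8.51 ± 1.03 CPM in sham libraries (SD, n = 3 each), a log2 fold change of 0.06 (SE 0.26).

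**Figure D5:**
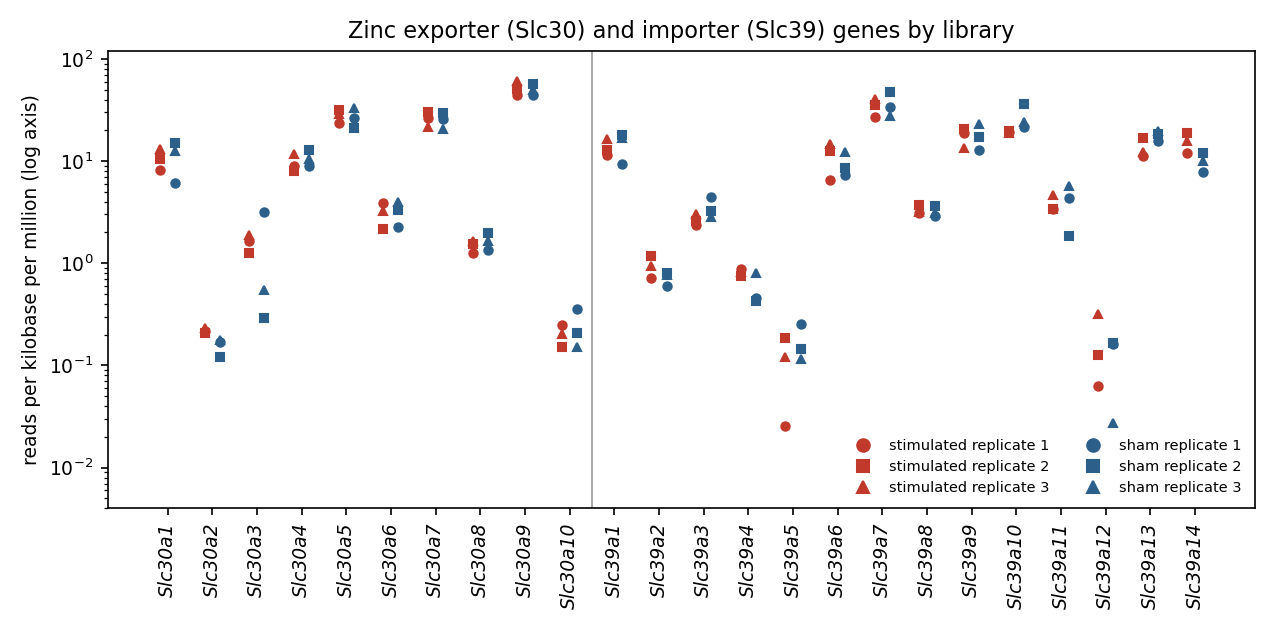
RPKM of the 10 Slc30 exporter and 14 Slc39 importer genes in each library, on a log axis, stimulated in red and sham in blue. Slc39a14, at the right, lies at 12 to 18.9 RPKM in stimulated and 7.85 to 12 RPKM in sham libraries, and Slc30a9 and Slc39a7 are the highest of their families.

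Genes known in mouse to depend on Mtf1, apart from the metallothioneins and Slc30a1, had 0 of 6 past the threshold, 2 higher and 4 lower, with a median log2 fold change of -0.42. The 4 lower include Slc39a10, which Mtf1 is known to repress when zinc is high, so the tally and median have no single expected direction. Selenow, a selenoprotein, had -0.59 (SE 0.27), Slc39a10 the value above, and Gclc, which makes the first step of glutathione synthesis, 0.40 (SE 0.27). The 9 copper handling genes likewise had 0 past the threshold, 2 higher and 7 lower, and a median of -0.27. Commd1, a copper export factor, had -0.69 (SE 0.34), Slc31a2 -0.39 (SE 0.29) and the copper importer Slc31a1 -0.29 (SE 0.27). At an unadjusted p under 0.05 neither list had a gene in either direction, and DESeq2 called 0 in both.

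The other inducers of metallothionein genes gave a split picture, and 0 of their genes passed the threshold. Of 12 glucocorticoid response genes, 6 leaned higher and 6 lower (median 0.04), 3 having an unadjusted p under 0.05, all higher. Fkbp5, an immunophilin of the glucocorticoid receptor complex, had 49.5, 63 and 94.7 CPM in stimulated replicates 1, 2 and 3, against 15.4, 17.9 and 21.5 CPM in sham replicates 1, 2 and 3 (log2 fold change 1.92, SE 0.3). Zbtb16, a transcription factor, had 1.91 (SE 0.37), and Ddit4, an inhibitor of mTORC1, stood at 41.2 ± 9.55 CPM in stimulated and 21.7 ± 5.8 CPM in sham libraries (SD, n = 3 each; log2 fold change 0.93, SE 0.29). DESeq2 called 2 of the 12 higher. The 12 include Nr3c1, the receptor itself, which glucocorticoids are known to repress in many cells and which had -0.46 (SE 0.23). Others of that list, such as Tsc22d3 at 0.18 (SE 0.41) and Per1 at -0.34 (SE 0.33), had 95% intervals that include 0. Of 16 genes of the interleukin-6 family and STAT3 response, 12 leaned higher and 4 lower (median 0.36), 4 with an unadjusted p under 0.05, all higher, and DESeq2 called 2. Lif, a cytokine of the family, had 1.27 (SE 0.32), and 0.67 from reads summed over transcripts. Lcn2, a siderophore-binding protein of neutrophils and inflamed tissue, had 1.62 (SE 0.43), and Osm, which signals through gp130, 0.99 (SE 0.34). Socs3, the feedback inhibitor induced by STAT3, stood at 161 ± 33.4 CPM in stimulated and 149 ± 41.8 CPM in sham libraries (SD, n = 3 each). Of 10 oxidative stress genes, 6 leaned higher and 4 lower (median 0.04), Hmox1 alone having an unadjusted p under 0.05 and DESeq2 calling 1. Hmox1, which degrades haem, stood at 164, 128 and 119 CPM in stimulated replicates 1, 2 and 3, against 24.2, 62 and 32 CPM in sham replicates 1, 2 and 3 (log2 fold change 1.80, SE 0.37). Nqo1 had -0.86 (SE 0.41) and Slc7a11, the cystine importer, 0.69 (SE 0.31).

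Cell type markers also differed between the groups, some lists being higher and some lower. Over 9 neutrophil markers the summed level was 142 to 200 CPM in stimulated and 54.5 to 69.5 CPM in sham libraries, and all 8 that were tested had higher values. Over 11 endothelial markers it was 1940 to 2950 CPM in stimulated and 3270 to 8150 CPM in sham libraries, all 11 lower, and over 11 pericyte markers 182 to 413 CPM in stimulated and 336 to 705 CPM in sham libraries, 10 lower. Over 8 myofibre markers it was 42.4 to 149 CPM in stimulated and 24.3 to 42.2 CPM in sham libraries, all 8 higher, and over 6 smooth muscle markers 67.7 to 175 CPM in stimulated and 129 to 342 CPM in sham libraries, all 6 lower. All 4 pan-leukocyte, 8 lymphocyte and 5 satellite cell markers were higher. All 6 fibro-adipogenic and 4 tenocyte markers and 7 of 8 macrophage and monocyte markers were lower. In each of these lists the summed ranges overlapped between the groups. The satellite cell sum was 30.4, 21.5 and 56.5 CPM in stimulated replicates 1, 2 and 3, against 34.9, 33.6 and 27 CPM in sham replicates 1, 2 and 3. Only stimulated replicate 3 stood above the sham range for that list. The neutrophil sum was highest in stimulated replicate 1, at 200 CPM. Stimulated replicate 3, the library highest in Mt1 and Mt2, also had the highest sums of fibro-adipogenic (872 CPM), tenocyte (329 CPM), satellite cell (56.5 CPM) and myofibre (149 CPM) markers of all 6 libraries. Sham replicate 2, the sham library highest in Mt1 and Mt2, was highest in endothelial and macrophage (1050 CPM) markers and lowest in lymphocyte markers (118 CPM, where the other libraries had 684 to 1140). None of the marker genes was at 0 in all libraries. The part of these differences in the metallothionein and Slc39a14 values was not tested.

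The genes whose levels followed the metallothioneins most closely were found by Pearson's r of log2 CPM over the 6 libraries, among the 9638 candidates whose log2 CPM averaged 3 or more. With 6 libraries in 2 groups, r mixes the difference between groups with that between mice and is a description only. Closest to Mt2 was Thbs1, the matricellular protein thrombospondin 1 (r = 0.994), at 155, 159 and 287 CPM in stimulated replicates 1, 2 and 3 and 66.7, 116 and 81.1 CPM in the sham replicates. Pde6h (r = 0.978), Sh3pxd2b (0.976) and Fam107a (0.976) were also among the 5 closest. Closest to Mt1 were Mpp7 (0.979), Sh3pxd2b (0.978), Gtf2h2 (0.975), Fgl2 (0.972) and Thbs1 (0.97). Closest to Slc39a14 were the kinase gene Rps6ka1 (0.993), Ptx3, a secreted pentraxin of inflammation (0.99), Slc26a2 (0.987), Arc (0.985) and Sgms2 (0.983). Ptx3 stood at 11.5, 30.3 and 24.3 CPM in stimulated replicates 1, 2 and 3, against 1.95, 6.66 and 3.57 CPM in sham replicates 1, 2 and 3. Stimulated replicate 1 and sham replicate 1 were the lowest of their groups, as for Slc39a14 in the deposited gene counts. That order of Slc39a14 depends on the counting. Its 4926-base coding transcript was lowest in stimulated replicate 2 (21.2 CPM) and sham replicate 3 (10.4 CPM). For stimulated replicate 2 the deposited Slc39a14 count was 932.48, against 648.71 reads summed over transcripts.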

How the data were processed

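Total RNA of sorted cells was sequenced in 6 libraries, 3 stimulated and 3 sham, made with a stranded low-input kit per the labels' protocols. Salmon 0.8.2, edgeR, Trimmomatic 0.36, bcl2fastq 2.17.1.14, R 3.5.1 and the build GRCm38 are listed in the submitters' processing notes, without settings. Estimated counts of 53715 genes were deposited in 1 table, and each library has a deposited transcript table that gives, per the file headers, TPM, estimated count and effective length for 135181 transcripts. Gene counts were proportional to summed TPM, up to 1 factor per gene and 1 per library, within 1% in 100% of 14096 genes checked, those above 0.1 TPM throughout, so the gene counts follow TPM rather than summed reads.

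Counts were rounded, filtered with filterByExpr (minimum count 10, total 15), scaled by TMM and tested with edgeR 4.0.16 (robust quasi-likelihood F test, R 4.3.3) on all genes, with Benjamini-Hochberg adjustment at 0.05. SE is the log2 fold change over the square root of F. Transcript shares and RPKM come from the transcript estimates and carry no test. Alternatives were DESeq2 1.42.0, limma voom 3.58.1, RLE factors, other filters, a threshold of 0.1, summed transcript reads, a block for replicate number, and fits that leave out 1 library. Each library is a separate mouse by the stated group sizes. Replicates differed by 31.2 to 114 in chi-square per gene, so no library was a duplicate. A default blastn search found no transcript of another gene matching the 549-base Mt1 or 511-base Mt2 transcript over 50 bases at 90% identity. The 388-base Mt2 and intron-keeping Mt1 transcripts were not searched. Such a search can miss short matches, so similar transcripts are not excluded. The test was checked on simulated counts.

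The genes, lists and tests were chosen with earlier results of these data known. From each list the 3 genes with the smallest p are named; Slc30a5, Slc30a7, Slc30a9, Slc39a7, Slc39a8, Tsc22d3, Per1, Nr3c1 and Socs3 fall outside that rule and were added after their values were seen. Of the genes closest in pattern to Mt2, 1 is not reported here. Gene coordinates are from GENCODE mouse release M21 (GRCm38).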

Additional observations from a re-analysis of the deposited data

How the results depend on the processing

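Direction and call were compared for 25 genes under 354 alternative values: 329 kept both, 12 gained a call and 13 changed sign. Mt1, Mt2 and Slc39a14 kept a positive sign under every alternative run, at log2 fold changes of 1.32 to 2.06, 1.85 to 3.33 and 0.51 to 0.88. The number of genes past the threshold, 0 in edgeR's test as reported, was 227 with DESeq2, 109 with no filter on low counts, 3 with RLE size factors, 3 at an adjusted p of 0.1, 1 from summed transcript counts, 0 with limma voom or 1 CPM in 3 libraries, and 0 to 1 with each library left out, the 1 being without stimulated replicate 3. Of the 6 genes, DESeq2 called 2 (Mt1 and Mt2), where it called 0.373% of genes with an adjusted p higher and 0.771% lower. The edgeR fit with no filter called 1 (Mt1, adjusted p = 0.0121), where it called 44 genes higher and 65 lower of 48844 tested. Fits with each library left out called 0 of the 6. The cause was not tested. Signs changed for genes near 0: Mtf1 ranged from -0.08 to 0.19 with each library left out, Slc30a1 from -0.35 to 0.21 and, from summed transcript counts, 0.03 with all libraries and 0.19, 0.12 and -0.21 without stimulated replicates 1, 2 and 3 and -0.19, 0.28 and 0.06 without sham replicates 1, 2 and 3 (these 6 chosen after seeing the data), Slc30a4 from -0.34 to 0.02 and Slc30a10 from -0.48 to 0.22. The Mt1 share of intron-keeping reads differed by -14.05 percentage points (stimulated minus sham), by -17.24 to -10.09 with each library left out, and by -8.44 as a share of TPM, the last 2 chosen after seeing the data.

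The replicate numbers of the titles are not said to pair mice. Deviations of same-numbered libraries correlated at 0.32, -0.16 and 0.13 for replicates 1, 2 and 3, and only replicate 1 matched its own number best in both groups. With the replicate block, 0 genes passed and the log2 fold changes were 1.69 for Mt1, 2.59 for Mt2 and 0.64 for Slc39a14. The common biological coefficient of variation was 0.398. Mt3, with at most 11 reads in a library, did not pass the filter on low counts, and other depths were not examined.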
